A study of Mus musculus with 12 samples.

Results

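The lysosomal genes examined here are 42 genes, chosen by name, that encode digestive enzymes, membrane proteins and the proton pump of the lysosome. They comprise 21 hydrolases, 3 soluble cofactors, 11 membrane proteins, 6 subunits of the proton pump and the transcription factor *Tfeb*. Each gene was represented by the transcript cluster, a set of array probes, that carried its symbol alone, and by the brighter cluster for *Arsb*, the 1 member with several. In this way 41 of the 42 genes were measured, among 21218 clusters with a single symbol for 18820 genes. *Sgsh*, which encodes the heparan sulfate sulfamidase, lies on clusters that carry a second symbol too and has no value here.

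Expression was measured in whole tissue on 12 Affymetrix Mouse Gene ST arrays, 3 per group, in the hippocampus of FIRE -/- mice, the hippocampus of FIRE +/+ mice, the ileum with Peyer's patches of FIRE -/- mice and the same tissue of FIRE +/+ mice. All mice were 6 weeks old, of the labelled strain C57BL/6J/CBA, and perfused with saline. FIRE is an intronic enhancer of *Csf1r*, the gene of the CSF1 receptor on which microglia and many other macrophages depend, and FIRE -/- mice lack it on both alleles. The study describes a male founder crossed to C57BL/6J females, while its methods speak of founders in the plural, so how many founders these mice descend from is not settled here. By the labels, each FIRE -/- group held 1 male and 2 females, and each FIRE +/+ group held 2 males and 1 female. The sources used here do not say whether the same mice gave both tissues.

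Lysosomes are acidic organelles in which cells break down material taken up by endocytosis or phagocytosis and worn-out parts of the cell itself. A vacuolar proton pump (V-ATPase) in the membrane keeps the lumen acidic, soluble hydrolases digest proteins, lipids, glycogen and glycosaminoglycans there, and membrane proteins protect the membrane and export the products. Nearly every cell type has lysosomes, and macrophages and microglia, the phagocytes of the tissues, hold particularly many and carry some lysosomal membrane proteins that most other cells make little of.

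The arrays were checked before the genes were compared. *Csf1r* stood between 3.58 and 3.69 on the log2 scale in the FIRE -/- hippocampus, against 8.15 to 8.34 in the FIRE +/+ hippocampus, and between 6.44 and 7.53 in the FIRE -/- ileum, against 7.39 to 8.17 in the FIRE +/+ ileum. All 11 measured neuron genes were higher, and all 12 epithelial genes lower, in hippocampus than in ileum, in both genotypes. The hippocampus FIRE -/- array B09 is labelled female but had *Xist* at 2.44 and the Y-linked *Eif2s3y* at 6.18, near the arrays labelled male, so the label is in doubt. In the ileum, the FIRE -/- array F09 and the FIRE +/+ array D09 were rich in B cell transcripts, with a mean of 7.66 and 7.54 over 10 B cell genes, against 3.55 to 3.99 on the other 4 ileum arrays. The hippocampus arrays had 2.80 to 2.97 in FIRE -/- and 2.96 to 3.23 in FIRE +/+ mice. The other 4 ileum arrays thus lay nearer the hippocampus levels than those of F09 and D09, although all ileum arrays are labelled as Peyer's patches. The array codes end in 07 for all FIRE +/+ hippocampus arrays and 1 FIRE -/- hippocampus array, and in 09 for the rest. The labels do not say what the number stands for. The p-values measure the spread between these arrays, and their number limits the precision.

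In the hippocampus, 3 of the 41 lysosomal genes fell in FIRE -/- mice and none rose. All 3 encode membrane proteins: *Laptm5*, a lysosomal protein of immune cells, *Cd68*, a heavily glycosylated protein of macrophage lysosomes, and *Slc11a1*, the metal transporter NRAMP1 of phagosomes. None of the 20 hydrolases, 3 cofactors, 6 pump subunits or *Tfeb* passed the test. Over all clusters, 0.448% (95 of 21218) fell and none rose (limma, Benjamini-Hochberg adjusted p under 0.05), against a background median difference of 0.01 on the log2 scale.

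*Laptm5* was at 5.49, 5.60 and 5.38 in the FIRE -/- hippocampus, against 8.98, 9.05 and 8.80 in the FIRE +/+ hippocampus. The genotypes stood far apart and did not overlap. The difference was -3.45 on the log2 scale, or 11.0-fold lower (standard error 0.10, limma adjusted p = 7.86e-06). *Cd68* was at 5.68, 5.75 and 5.63 in the FIRE -/- hippocampus, against 6.76, 6.74 and 6.74 in the FIRE +/+ hippocampus. The 3 FIRE +/+ arrays were nearly level, and no FIRE -/- array reached them. The difference was -1.06 (2.08-fold lower, standard error 0.08, limma adjusted p = 7.81e-04). *Slc11a1* was at 4.25, 4.06 and 4.04 in the FIRE -/- hippocampus, against 5.19, 5.44 and 5.18 in the FIRE +/+ hippocampus, again without overlap. The difference was -1.15 (2.22-fold lower, standard error 0.11, limma adjusted p = 0.0030). The FIRE -/- values lay a little below the medians of those arrays, 4.30 to 4.37.

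*Laptm5* passed in each of the 18 alternatives tried, which were not all separate checks. The one with the second cluster of *Arsb* leaves the other genes unchanged. The array code as a block and the arrays of code number 07 both set H07 alone against the FIRE +/+ arrays. *Cd68* did not pass in one fit of all 12 arrays (adjusted p = 0.951) or within the 4 hippocampus arrays of code number 07 (-1.12). In the fit of 12 arrays its difference was still -1.06, with 1 spread taken over both tissues. The SDs of *Cd68* were 0.52 and 0.75 in the FIRE -/- and FIRE +/+ ileum, against 0.06 and 0.01 in the hippocampus. *Slc11a1* did not pass in the fit of 12 arrays (adjusted p = 0.532) or within code number 07 (-1.23). It also did not pass in a test without moderation (adjusted p = 0.179) or with the array code as a block (-1.23, adjusted p = 0.0520). Without array B09 all 3 passed, *Laptm5* at -3.51 (adjusted p = 1.86e-04), *Cd68* at -1.09 (adjusted p = 0.0075) and *Slc11a1* at -1.12 (adjusted p = 0.0294).

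Transcripts of microglia and macrophages moved on the same arrays. Of 19 measured marker genes of these cells, none of them among the 42 genes, 18 fell in the FIRE -/- hippocampus, with a median difference of -3.06, and the 1 that did not pass was *Aif1* at -1.18 (limma adjusted p = 0.234). Their mean level was 3.67 to 3.87 on the FIRE -/- arrays, against 6.61 to 6.90 on the FIRE +/+ arrays. In whole tissue, fewer cells of a type and less RNA per cell cannot be told apart.

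The promoters of the genes were read for the element through which TFEB, a transcription factor that switches on lysosomal genes, and its relatives act. TFEB binds an E-box, CACGTG, often within TCACGTGA, letters that read the same on both strands. RefSeq start sites on GRCm38.p6 gave windows of 250 bases before the start for 37 of the 42 genes, 4 of them with several starts, and any window of a gene counted. CACGTG occurred in 24.3% of these genes (9 of 37), against 7.61% of 17492 protein-coding genes, and TCACGTGA, which contains it, in 8.11% (3 of 37), against 1.15%. The 9 genes were *Arsa*, *Atp6v1a*, *Cln3*, *Gaa*, *Glb1*, *Lamp1*, *Mcoln1*, *Naglu* and *Sgsh*. The letters GAGGAAGT, a form of the site of the myeloid factor PU.1, searched on both strands, occurred in none of the 37 genes, against 2.57% of protein-coding genes. At so low a share, the lack of a match among 37 genes says little. None of these letters occurred in the windows of *Laptm5*, *Cd68* and *Slc11a1*. A match is a description of letters and not evidence of binding, and the absence of a match concerns this window alone.

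The windows are shown for the 3 genes that fell in the FIRE -/- hippocampus and, with the matching letters in capitals, for *Lamp1*, which has CACGTG 4 times, at 61, 45, 28 and 15 bases before the start, and *Atp6v1a*, which has CACGTG within TCACGTGA, the core at 131 bases, each distance being that of the first base of CACGTG. Each runs 5′ to 3′ on the strand of the gene and ends at the base before the start. They lie at chr4:130913066-130913315 (Laptm5, plus strand), chr11:69666171-69666420 (Cd68, minus strand), chr1:74374953-74375202 (Slc11a1, plus strand), chr8:13158911-13159160 (Lamp1, plus strand) and chr16:44139260-44139509 (Atp6v1a, minus strand).
Laptm5: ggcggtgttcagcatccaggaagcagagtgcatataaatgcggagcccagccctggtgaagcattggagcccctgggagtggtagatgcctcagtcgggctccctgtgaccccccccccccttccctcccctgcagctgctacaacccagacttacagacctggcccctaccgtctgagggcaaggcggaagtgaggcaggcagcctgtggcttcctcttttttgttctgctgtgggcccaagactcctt
Cd68: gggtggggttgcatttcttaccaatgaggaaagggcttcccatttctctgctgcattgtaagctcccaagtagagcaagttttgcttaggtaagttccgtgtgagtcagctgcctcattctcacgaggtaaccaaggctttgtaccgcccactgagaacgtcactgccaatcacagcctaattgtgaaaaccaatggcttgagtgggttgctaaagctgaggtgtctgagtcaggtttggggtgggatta
Slc11a1: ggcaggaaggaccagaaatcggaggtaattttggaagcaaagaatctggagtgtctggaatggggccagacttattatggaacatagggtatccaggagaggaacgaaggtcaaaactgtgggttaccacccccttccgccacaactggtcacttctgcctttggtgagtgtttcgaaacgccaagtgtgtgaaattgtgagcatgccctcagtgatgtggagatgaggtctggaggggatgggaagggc
Lamp1: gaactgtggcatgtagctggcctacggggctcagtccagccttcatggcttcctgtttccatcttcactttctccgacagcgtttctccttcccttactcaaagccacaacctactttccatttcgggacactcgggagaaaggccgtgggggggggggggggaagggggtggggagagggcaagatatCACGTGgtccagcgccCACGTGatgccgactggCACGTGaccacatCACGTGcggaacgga
Atp6v1a: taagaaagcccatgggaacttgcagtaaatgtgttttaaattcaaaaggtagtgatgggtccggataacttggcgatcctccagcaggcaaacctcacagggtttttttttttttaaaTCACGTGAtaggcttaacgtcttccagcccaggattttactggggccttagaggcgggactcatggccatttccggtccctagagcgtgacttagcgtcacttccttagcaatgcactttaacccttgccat

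**Figure D1:**
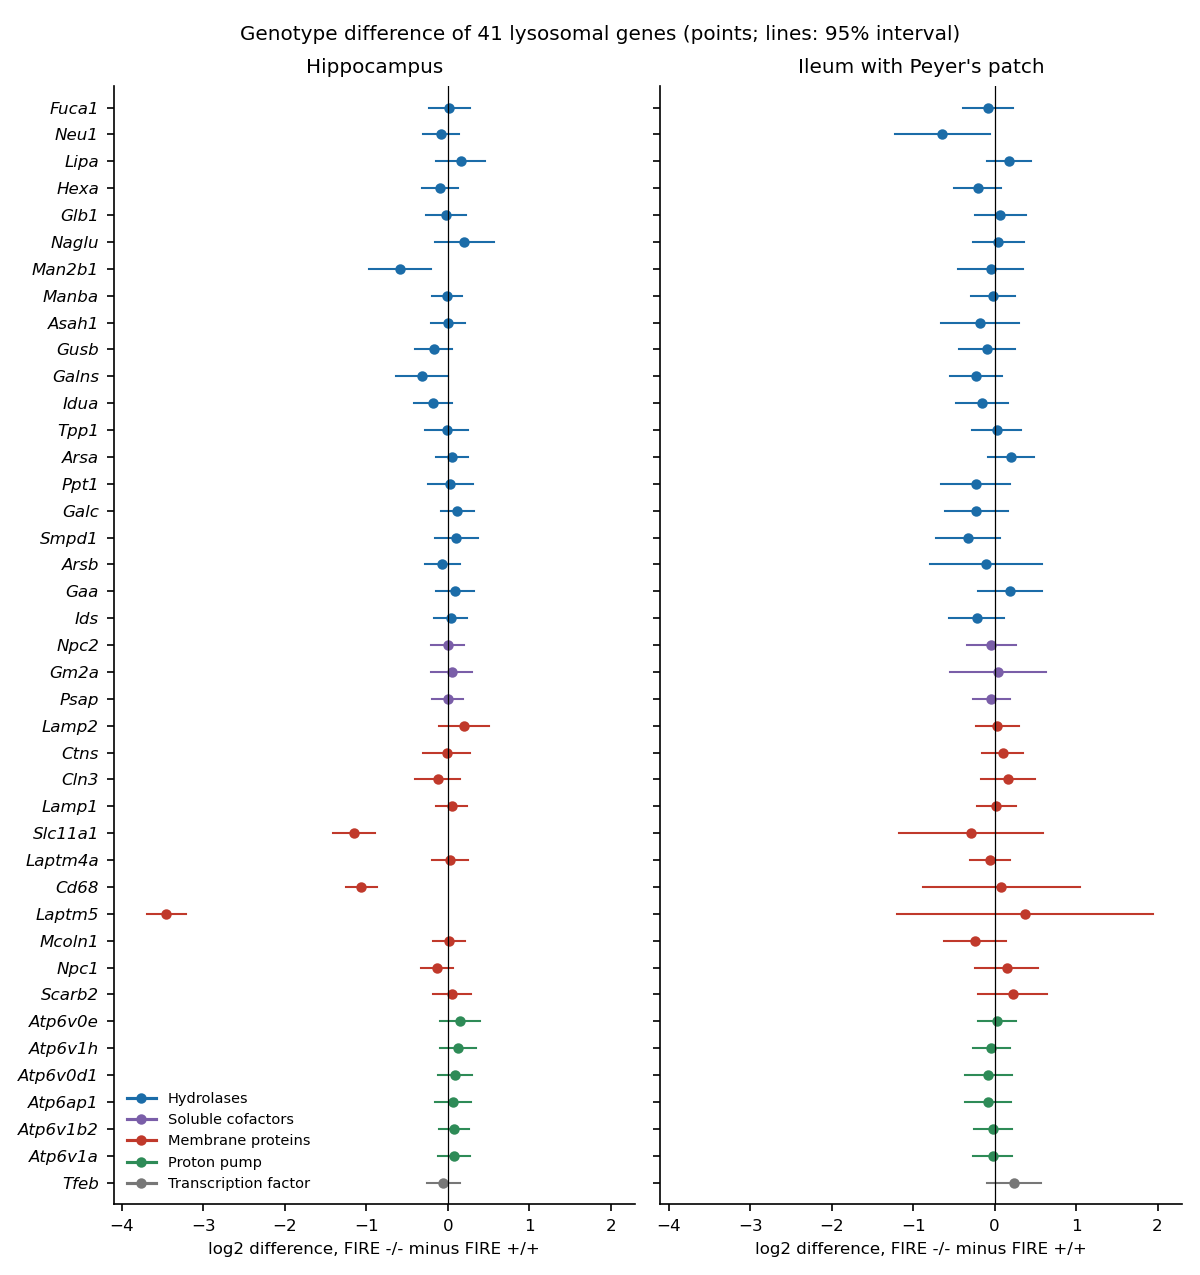
Log2 difference between FIRE -/- and FIRE +/+ mice for each of 41 lysosomal genes, in the hippocampus (left) and the ileum (right), with 95% confidence intervals (limma, 3 arrays per group) and colours for the class of the gene. In the hippocampus *Laptm5* (-3.45), *Cd68* (-1.06) and *Slc11a1* (-1.15) stand left of all others, and in the ileum the same 3 genes have the widest intervals.

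The remaining 38 lysosomal genes lay close to 0 in the hippocampus. Their median difference was 0.02, and 34 of them lay within 0.2 of 0 on the log2 scale. Their 95% intervals reached between 0.18 and 0.38 to either side, and the adjusted test over all clusters asked for larger differences than these. Of all 41 genes, 5 had groups that did not overlap with FIRE -/- lower, at a background of 5.2% of all clusters, and 1 had groups that did not overlap with FIRE -/- higher, at a background of 4.46%.

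Among the hydrolases the median difference was -0.0043. The member farthest from 0 was *Man2b1*, the lysosomal alpha-mannosidase that trims glycoprotein sugars. It was at 7.62, 7.62 and 7.09 in the FIRE -/- hippocampus, against 7.98, 8.22 and 7.88 in the FIRE +/+ hippocampus. The groups did not overlap, but the FIRE -/- arrays spread by 0.30 (SD) and the difference of -0.59 (standard error 0.16) did not pass (unadjusted p = 0.0075, limma adjusted p = 0.565). The low FIRE -/- array was H07, the one whose code ends in 07, and the difference was -0.94 both when the code number entered the fit as a block (limma adjusted p = 0.174) and among the arrays of code 07 alone (limma adjusted p = 0.519). *Man2b1* was the only hydrolase, and the fourth of the 41 genes, with an unadjusted p under 0.05, as 4.73% of all clusters had. The next lowest was *Galns*, a sulfatase of keratan and chondroitin sulfate, at -0.32, and the highest was *Naglu*, a glucosaminidase of heparan sulfate, at 0.20. *Hexa*, the alpha chain of beta-hexosaminidase, was at -0.10, *Galc*, which digests the myelin lipid galactosylceramide, at 0.12, *Arsa*, which desulfates sulfatide, at 0.05, and *Tpp1*, a tripeptidyl peptidase, at -0.01.

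The soluble cofactors lay near 0. *Gm2a*, the activator that presents GM2 ganglioside to beta-hexosaminidase, was the cofactor farthest from 0. It was at 10.03, 10.23 and 10.07 in the FIRE -/- hippocampus, against 10.14, 10.16 and 9.88 in the FIRE +/+ hippocampus, with overlap and a difference of 0.05. *Psap*, the precursor of the saposins, which lift sphingolipids to their enzymes, was at 11.87, 11.88 and 11.87 in FIRE -/- mice, against 11.93, 11.90 and 11.79 in FIRE +/+ mice. Its difference was 0.0010 (95% confidence interval -0.19 to 0.19). *Npc2*, a carrier of cholesterol, stood at -0.0010.

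The other 8 membrane proteins did not pass either. *Lamp1*, a main glycoprotein of the lysosomal membrane, was at 10.41, 10.30 and 10.30 in the FIRE -/- hippocampus, against 10.32, 10.27 and 10.27 in the FIRE +/+ hippocampus. These ranges overlapped and the difference was 0.05 (95% confidence interval -0.14 to 0.24). Its relative *Lamp2* was at 9.97, 10.19 and 9.94, against 10.08, 9.78 and 9.63 in FIRE +/+ mice, a difference of 0.20 (95% confidence interval -0.11 to 0.51) with overlap. *Laptm4a*, which belongs to the same protein family as *Laptm5*, stood at 0.03, beside the -3.45 of *Laptm5*. *Npc1*, which exports cholesterol, was at -0.13 with groups that did not overlap (unadjusted p = 0.161). *Scarb2*, which carries glucocerebrosidase to the lysosome, was at 0.05, the cation channel gene *Mcoln1* at 0.01, the cystine exporter gene *Ctns* at -0.01 and *Cln3*, whose protein is lost in a childhood storage disease, at -0.12.

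All 6 subunits of the proton pump had positive differences, none past the test and none with an unadjusted p under 0.05. The 18 further subunits had differences of both signs, between -0.30 for *Tcirg1* (unadjusted p = 0.0506) and 0.20 for *Atp6v1b1*, which is below the array medians throughout. The 6 subunits ran between 0.07 for *Atp6ap1*, an accessory subunit, and 0.15 for *Atp6v0e*, a small subunit of the membrane sector, with a median of 0.08. The FIRE +/+ array G07 was the lowest of its group for *Atp6v1a*, *Atp6v1b2*, *Atp6ap1*, *Atp6v0d1* and *Atp6v1h*. On it *Atp6ap1* was at 10.71, against 10.94 and 10.92 on the other FIRE +/+ arrays and 10.90, 10.97 and 10.89 in FIRE -/- mice. *Atp6v0e* was at 8.34, 8.40 and 8.20 in the FIRE -/- hippocampus, against 8.27, 8.002 and 8.21 in the FIRE +/+ hippocampus, with overlap. The 1 subunit without overlap was *Atp6v1b2*, which encodes part of the ATP-hydrolysing head, with 11.810, 11.775 and 11.858 in FIRE -/- mice, against 11.769, 11.731 and 11.725 in FIRE +/+ mice. Its difference was 0.07 (95% confidence interval -0.11 to 0.26). *Tfeb* was at 6.08, 6.09 and 6.02 in the FIRE -/- hippocampus, against 6.02, 6.22 and 6.11 in the FIRE +/+ hippocampus, a difference of -0.06 with overlap.

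Further lysosomal genes were taken from 4 wider lists. Of 16 further measured hydrolases and enzymes that process them, 18 further proton pump subunits and 17 genes of the MiT/TFE factors and the kinase signalling on the lysosome, none passed in the hippocampus. Of 32 genes on a further list of membrane proteins, 1 passed as lower, where 0.448% of all clusters did. The list also holds *Grn*, whose protein is soluble, and *Cln6*, whose protein lies in the endoplasmic reticulum. The gene that passed was *Slc15a3*, a histidine and peptide transporter of endolysosomes. *Slc15a3* was at 3.48, 3.66 and 3.35 in the FIRE -/- hippocampus, against 4.26, 4.48 and 4.78 in the FIRE +/+ hippocampus. The groups did not overlap, the difference was -1.01 (standard error 0.15, limma adjusted p = 0.0332), and most of these values lie near or below the array medians.

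**Figure D2:**
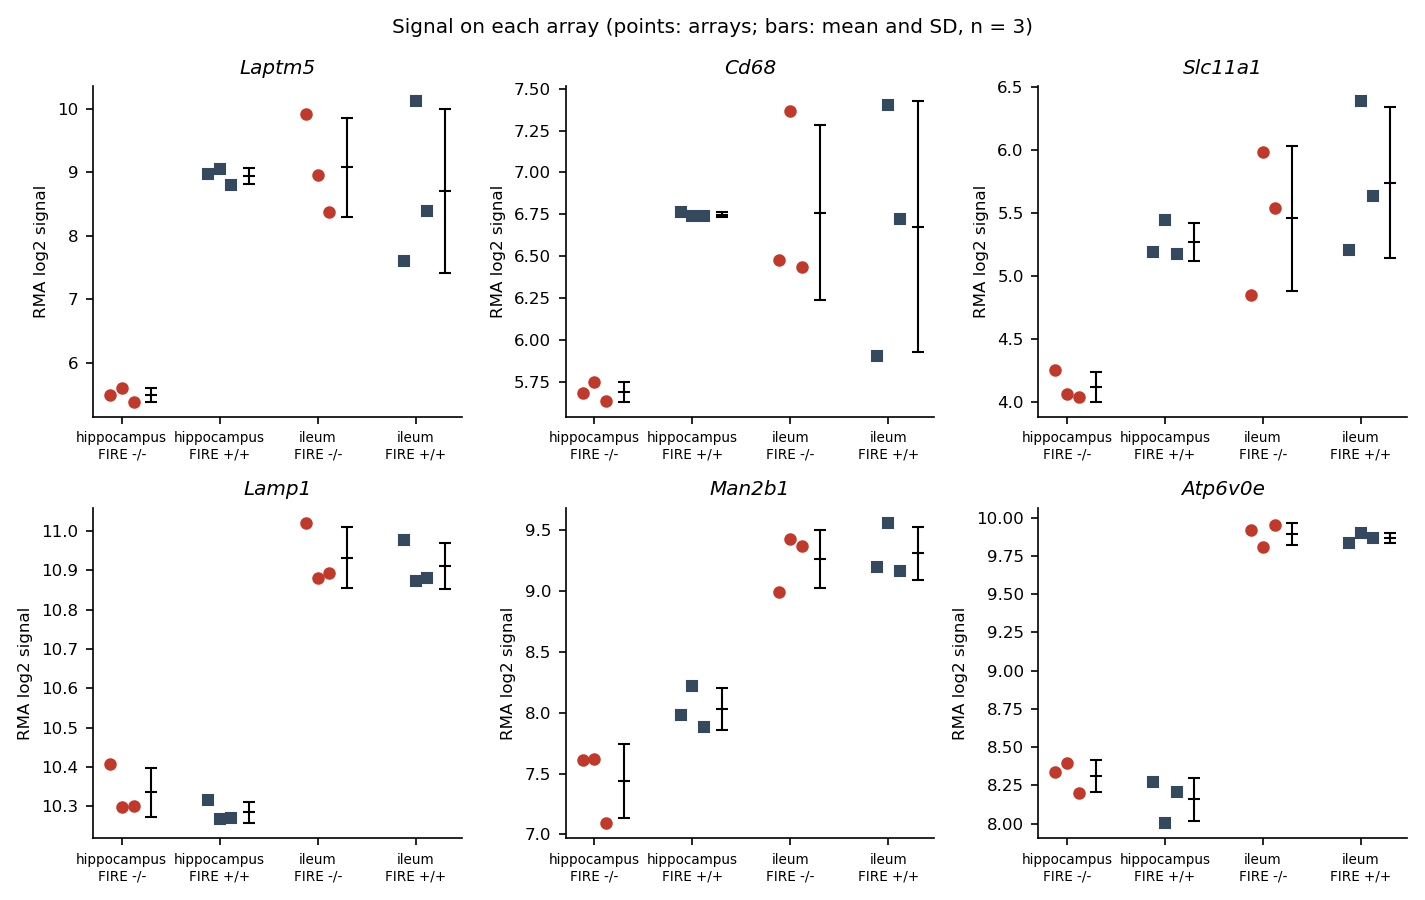
RMA log2 signal of *Laptm5*, *Cd68*, *Slc11a1*, *Lamp1*, *Man2b1* and *Atp6v0e* on each array, with the mean and SD of each group of 3 beside the points. *Laptm5* lies between 5.38 and 5.60 in the FIRE -/- hippocampus and spreads between 7.60 and 10.13 in the FIRE +/+ ileum, while *Lamp1* and *Atp6v0e* separate the tissues and not the genotypes.

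In the ileum none of the 41 lysosomal genes passed in either direction, and neither did any other cluster (limma, 0% of 21218). At an unadjusted p under 0.05 there was 1 lysosomal gene, *Neu1*, among 3.39% of all clusters, and no gene had groups that did not overlap, at a background of 4.52% lower and 3.52% higher. *Neu1*, the lysosomal sialidase, was at 8.18, 8.10 and 8.81 in the FIRE -/- ileum, against 8.60, 9.21 and 9.20 in the FIRE +/+ ileum. The highest FIRE -/- array exceeded the lowest FIRE +/+ array, and the difference was -0.64 (standard error 0.25, unadjusted p = 0.0350, limma adjusted p = 0.9995). The class medians were -0.10 for the hydrolases, -0.04 for the cofactors, 0.08 for the membrane proteins and -0.03 for the proton pump, against -0.01 over all clusters.

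The 3 genes that fell in the hippocampus were the most variable lysosomal genes in the ileum. *Laptm5* was at 9.92, 8.96 and 8.37 in the FIRE -/- ileum, against 7.60, 10.13 and 8.39 in the FIRE +/+ ileum, with SDs of 0.78 and 1.29. The highest array of each genotype was one of the B cell-rich arrays, F09 and D09, and the difference was 0.38 (95% confidence interval -1.19 to 1.95). *Cd68* was at 6.48, 7.37 and 6.44 in the FIRE -/- ileum, against 5.90, 7.40 and 6.72 in the FIRE +/+ ileum, a difference of 0.08 (95% confidence interval -0.88 to 1.05). *Slc11a1* was at 4.85, 5.98 and 5.54 in the FIRE -/- ileum, against 5.21, 6.39 and 5.63 in the FIRE +/+ ileum, a difference of -0.29 (95% confidence interval -1.17 to 0.60). For *Cd68* and *Slc11a1* the highest arrays were G09 and D09, on which the mean of the 19 microglia and macrophage markers was also the highest of its group, at 6.65 in FIRE -/- and 6.94 in FIRE +/+ mice, against 5.97 to 6.37 on the other 4 ileum arrays. Without D09 and F09 the differences were 0.67 for *Laptm5*, 0.59 for *Cd68* and 0.34 for *Slc11a1*, none past the test (limma adjusted p = 0.913 each). The part of the lymphoid and macrophage transcripts in these values was not tested.

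Whether the genotype difference itself differed between hippocampus and ileum was tested in a fit of all 12 arrays, in which 0.0895% of all clusters passed as lower and none as higher. No lysosomal gene passed, and 2 of 41 had an unadjusted p under 0.05, as did 4.21% of all clusters. *Laptm5* came closest, with a difference of -3.83 on the log2 scale between the genotype effects of hippocampus and ileum (95% confidence interval -5.45 to -2.21, limma adjusted p = 0.160). *Cd68* had -1.14 (unadjusted p = 0.0277, adjusted p = 0.9997) and *Slc11a1* had -0.86 (adjusted p = 0.9997). This result turned on the ileum arrays. *Laptm5* passed without D09 (-4.54, adjusted p = 0.0028), without D09 and F09 (-4.12, adjusted p = 4.58e-04) and with array weights (-3.83, adjusted p = 0.0200). Without D09 and F09 *Slc11a1* passed too, at -1.49 (adjusted p = 0.0423). D09 and F09 held the highest *Laptm5* values of their groups, so leaving them out also narrows the spread of *Laptm5*. With each array left out in turn, *Laptm5* ran between -4.54 and -3.28, with adjusted p between 0.0028 and 0.512.

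The tissues differed far more than the genotypes. In hippocampus against ileum, 21 of the 41 lysosomal genes were lower and 13 higher in FIRE -/- mice, where 31.8% of all clusters were lower and 29.5% higher. In FIRE +/+ mice 18 were lower and 12 higher, where 31.1% of all clusters were lower and 28.7% higher. The differences of these contrasts share no array, but both were tested against a spread taken from all 12 arrays, so the calls are not independent. In both genotypes 18 genes were lower and 12 higher, with none in opposite directions. The share of all clusters that passed the same way in both genotypes was not counted. This agreement is therefore not set against a background. The arrays of the tissues did not overlap for 22 genes lower and 14 higher in FIRE -/- mice, at a background of 36.6% and 32.2%, and for 19 lower and 13 higher in FIRE +/+ mice, at a background of 33.7% and 30.3%. The genes that passed in neither were *Laptm4a*, *Scarb2*, *Npc1*, *Tpp1*, *Arsa*, *Idua* and *Gm2a*. Single ileum arrays decided some of these. In FIRE +/+ mice *Gm2a* passed without D09 (0.58, adjusted p = 0.0138), and *Scarb2* (0.48, adjusted p = 0.0079), *Npc1* (0.42, adjusted p = 0.0131) and *Idua* (-0.35, adjusted p = 0.0149) passed without C09. In FIRE -/- mice *Arsa* passed without H09 (-0.34, adjusted p = 0.0085). The median over all clusters was -0.07 in FIRE -/- mice and -0.03 in FIRE +/+ mice, and centring each array on its median moved it by -0.15 and -0.12. Cell makeup differs between these tissues throughout, and levels per cell cannot be told apart from it.

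**Figure D3:**
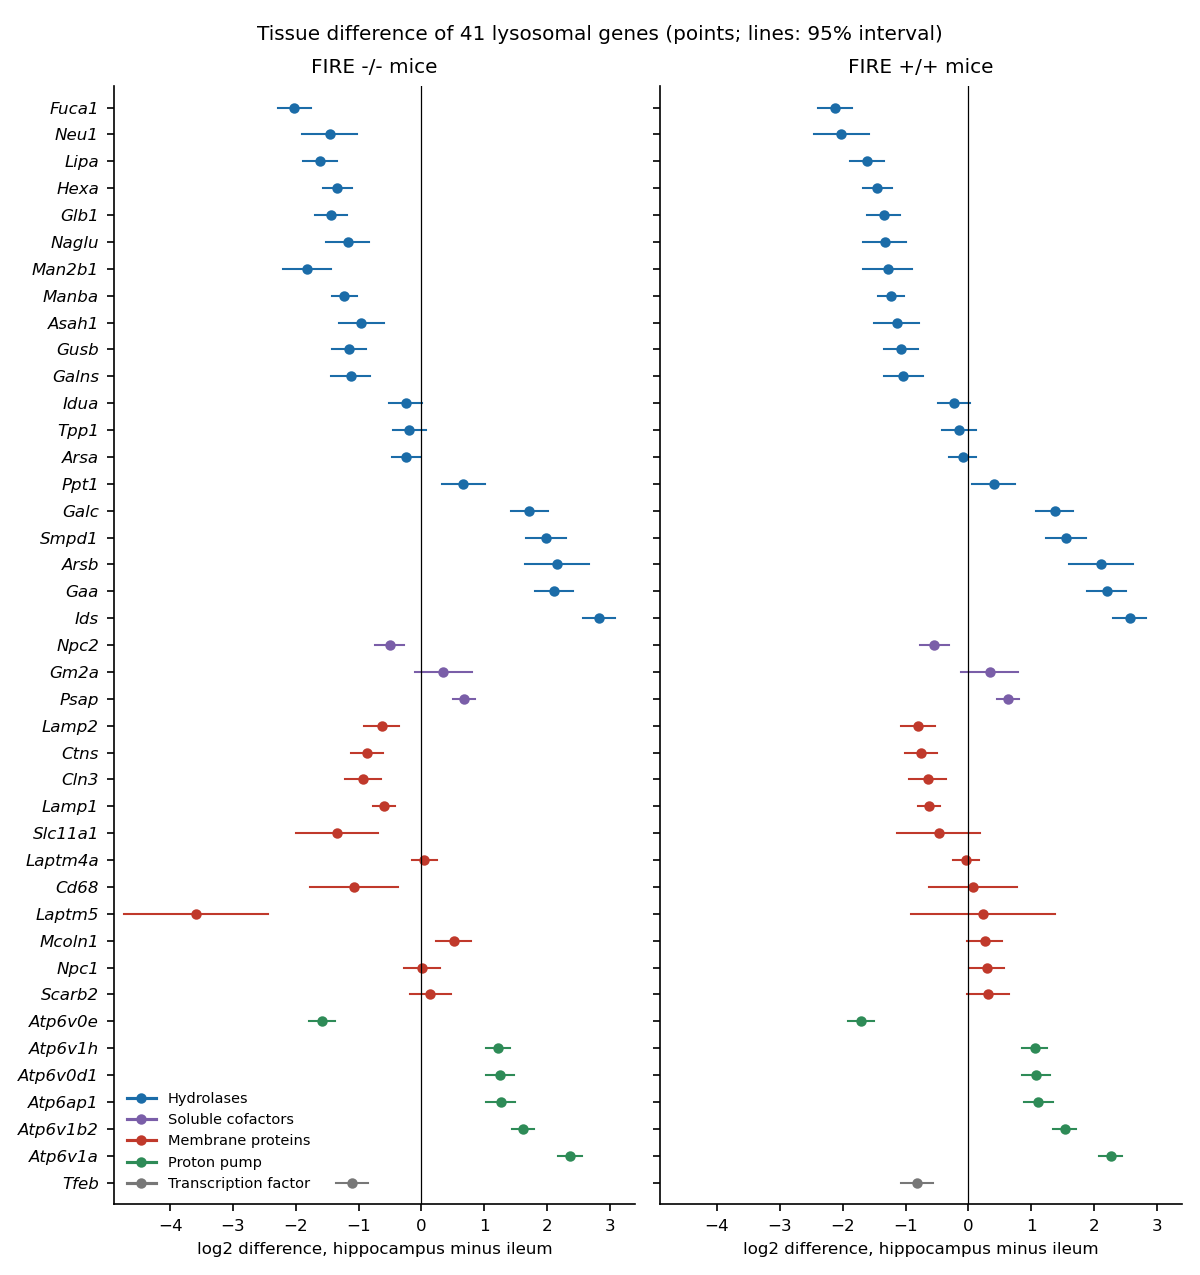
Log2 difference between hippocampus and ileum for each of 41 lysosomal genes in FIRE -/- mice (left) and FIRE +/+ mice (right), with 95% confidence intervals (limma, one fit of 12 arrays) and colours for the class of the gene. The hydrolases run in both panels between *Fuca1* (-2.02 in FIRE -/- and -2.12 in FIRE +/+ mice) and *Ids* (2.82 and 2.57), and 5 of the 6 pump subunits lie right of 0.

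The hydrolases were split in the same way in both genotypes, with 11 of 20 lower in hippocampus than in ileum, 6 higher and 3 that did not pass. Over all clusters, 31.8% were lower and 29.5% higher in FIRE -/- mice, and 31.1% and 28.7% in FIRE +/+ mice. The class median was -1.04 in FIRE -/- mice and -1.05 in FIRE +/+ mice. The enzymes that take sugars off glycoproteins were all lower in hippocampus. These 4 were *Fuca1*, the alpha-fucosidase (-2.02 in FIRE -/- and -2.12 in FIRE +/+ mice), *Neu1* (-1.46 and -2.02), *Man2b1* (-1.82 and -1.28) and *Manba*, the beta-mannosidase (-1.23 and -1.23). *Lipa*, the acid lipase that frees cholesterol from its esters, was lower too (-1.62 and -1.61).

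The 6 enzymes of sphingolipid breakdown went both ways. *Hexa* (-1.34 in FIRE -/- and -1.45 in FIRE +/+ mice), *Glb1*, the beta-galactosidase that takes galactose off GM1 ganglioside (-1.44 and -1.35), and *Asah1*, the acid ceramidase (-0.96 and -1.14), were lower in hippocampus. *Smpd1*, the acid sphingomyelinase (1.98 and 1.55), and *Galc* (1.72 and 1.37) were higher, and *Arsa* did not pass (-0.24 and -0.09). The 6 enzymes of glycosaminoglycan breakdown were split likewise. *Naglu* (-1.18 and -1.33), *Gusb*, the beta-glucuronidase (-1.16 and -1.07), and *Galns* (-1.13 and -1.03) were lower, and the sulfatase genes *Ids* and *Arsb* (2.15 and 2.12) were higher. Each group of 6 thus had 3 lower and 2 higher in both genotypes. Over all clusters, 31.8% were lower and 29.5% higher in FIRE -/- mice, and 31.1% and 28.7% in FIRE +/+ mice.

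*Ids*, which encodes the iduronate sulfatase, had the largest difference of the class. It was at 10.65, 10.65 and 10.62 in the hippocampus of FIRE -/- mice, against 7.66, 7.81 and 7.98 in their ileum. In FIRE +/+ mice it was at 10.68, 10.64 and 10.49 in the hippocampus, against 7.82, 8.09 and 8.20 in the ileum. No array of either tissue came near the other, and hippocampus was 7.08-fold higher in FIRE -/- mice (limma adjusted p = 5.44e-10) and 5.92-fold higher in FIRE +/+ mice (limma adjusted p = 1.32e-09). *Gaa*, which digests glycogen, was also higher in hippocampus (2.11 and 2.20). *Ppt1*, a thioesterase that removes palmitate from proteins, was at 0.66 in FIRE -/- mice (limma adjusted p = 0.0028) and at 0.40 in FIRE +/+ mice (limma adjusted p = 0.0453), where it did not pass in 10 of 18 settings.

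Of the cofactors, *Psap* was higher in hippocampus. It was at 11.87, 11.88 and 11.87 in the hippocampus of FIRE -/- mice, against 11.16, 11.24 and 11.21 in their ileum, and at 11.93, 11.90 and 11.79 in the hippocampus of FIRE +/+ mice, against 11.19, 11.30 and 11.24 in their ileum. The differences were 0.67 and 0.63, each far beyond the spread of the arrays. *Npc2* was lower in hippocampus (-0.50 in FIRE -/- and -0.54 in FIRE +/+ mice), and *Gm2a* did not pass (0.35 and 0.34).

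Among the membrane proteins, 7 of 11 were lower and 1 higher in FIRE -/- mice, with a median of -0.63. In FIRE +/+ mice 4 were lower and none higher, with a median of -0.04. Of all clusters, 31.8% were lower and 29.5% higher in FIRE -/- mice, and 31.1% and 28.7% in FIRE +/+ mice. *Lamp2* was at 9.97, 10.19 and 9.94 in the hippocampus of FIRE -/- mice, against 10.61, 10.75 and 10.64 in their ileum, and at 10.08, 9.78 and 9.63 in the hippocampus of FIRE +/+ mice, against 10.73, 10.49 and 10.67 in their ileum. The tissues did not overlap in either genotype, and the differences were -0.63 and -0.80. *Lamp1* (-0.60 and -0.63), *Ctns* (-0.87 and -0.75) and *Cln3* (-0.94 and -0.65) were also lower in hippocampus in both genotypes.

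The 4 genes that passed in FIRE -/- mice alone were *Laptm5*, *Cd68*, *Slc11a1* and *Mcoln1*. The share of all clusters that passed in FIRE -/- mice alone was not counted. *Laptm5* was at -3.59 in FIRE -/- mice (limma adjusted p = 6.35e-05) and at 0.24 in FIRE +/+ mice (limma adjusted p = 0.729). *Cd68* was at -1.07 (limma adjusted p = 0.0117) and 0.07, *Slc11a1* at -1.34 (limma adjusted p = 0.0018) and -0.47, and *Mcoln1* at 0.51 (limma adjusted p = 0.0041) and 0.26. The test of the difference between the genotypes is the one given above for both tissues, and none of the 4 passed it with all arrays. *Laptm5* also passed in FIRE +/+ mice, as higher in hippocampus, without D09 (0.95, adjusted p = 0.0437).

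The proton pump was the class most uniformly higher in hippocampus. Of its 6 members, 5 were higher and 1 lower in both genotypes, with a median of 1.25 in FIRE -/- mice and 1.10 in FIRE +/+ mice. The shares over all clusters were 29.5% higher and 31.8% lower in FIRE -/- mice, and 28.7% and 31.1% in FIRE +/+ mice. *Atp6v1a*, the subunit that binds and splits ATP, was at 10.74, 10.77 and 10.84 in the hippocampus of FIRE -/- mice, against 8.37, 8.42 and 8.48 in their ileum. In FIRE +/+ mice it was at 10.77, 10.73 and 10.63 in the hippocampus, against 8.36, 8.49 and 8.49 in the ileum. The tissues lay more than 2 log2 units apart on every array, with differences of 2.36 (5.14-fold) and 2.26 (4.81-fold) and limma adjusted p = 1.48e-10 and 2.22e-10. *Atp6v1b2* (1.62 and 1.53), *Atp6ap1* (1.26 and 1.11), *Atp6v0d1*, which joins the head to the membrane sector (1.25 and 1.08), and *Atp6v1h* of the head (1.22 and 1.05) were higher as well.

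*Atp6v0e* went the other way. It was at 8.34, 8.40 and 8.20 in the hippocampus of FIRE -/- mice, against 9.92, 9.81 and 9.95 in their ileum, and at 8.27, 8.002 and 8.21 in the hippocampus of FIRE +/+ mice, against 9.84, 9.90 and 9.87 in their ileum. The tissues did not overlap, and the differences were -1.58 and -1.71. The other gene for this subunit, *Atp6v0e2*, was chosen for comparison after its values were seen. It was at 10.15, 10.35 and 10.30 in the hippocampus of FIRE -/- mice, against 7.85, 8.05 and 8.06 in their ileum, and at 10.33, 10.37 and 9.93 in the hippocampus of FIRE +/+ mice, against 7.96, 8.18 and 8.30 in their ileum. It was thus higher in hippocampus by 2.28 and 2.06, opposite in direction to *Atp6v0e*.

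The 18 further pump subunits with a cluster of their own had 10 higher and 2 lower in FIRE -/- mice, and 10 higher and 3 lower in FIRE +/+ mice. Over all clusters, 29.5% were higher and 31.8% lower in FIRE -/- mice, and 28.7% and 31.1% in FIRE +/+ mice. The largest differences were those of *Atp6v1g2*, a head subunit known as the neuronal form (5.84 and 5.60), and *Atp6v1c1* (2.31 and 2.24). The genes lowest in hippocampus both encode forms of the large membrane subunit a, *Atp6v0a2* (-1.56 and -1.56) and *Tcirg1*, the form known from osteoclasts (-1.54 and -1.27), while the form *Atp6v0a1*, also chosen after its values were seen, was higher (1.89 and 1.86).

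**Figure D4:**
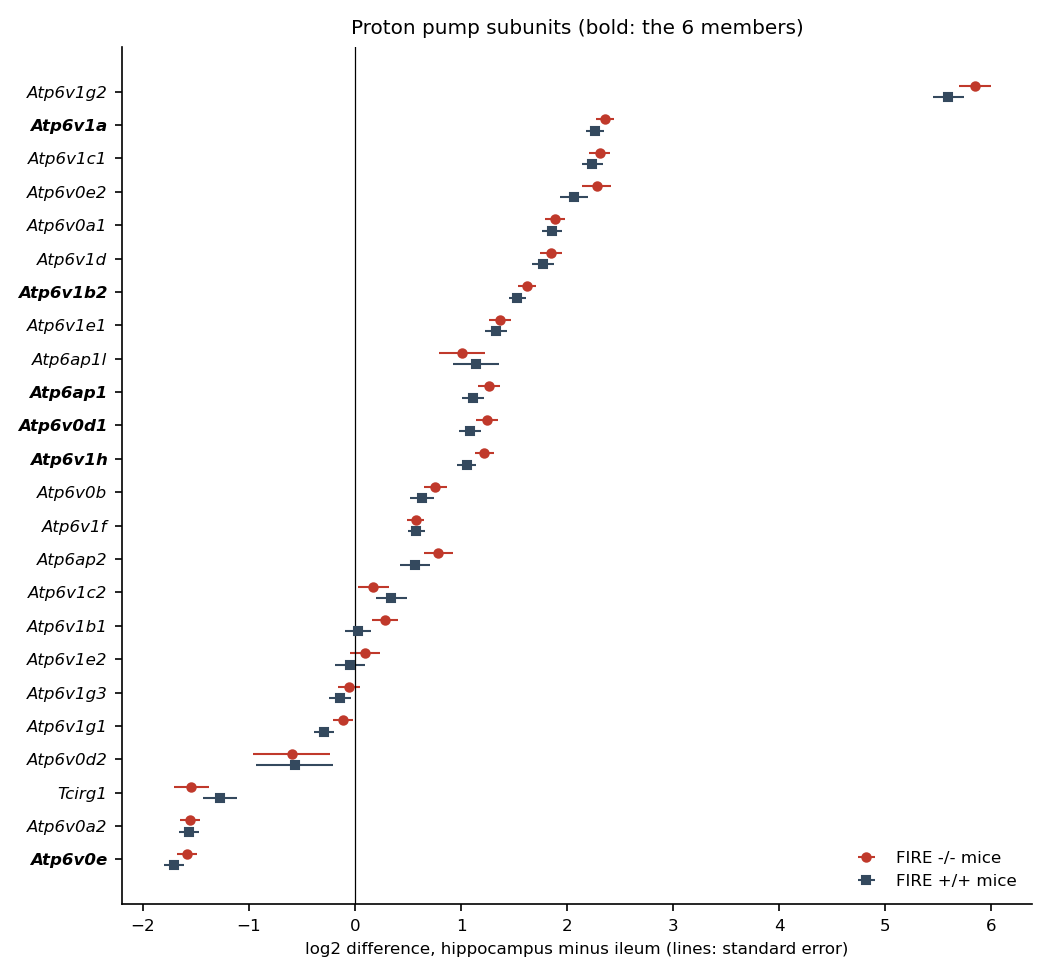
Log2 difference between hippocampus and ileum for 24 subunits of the proton pump, in FIRE -/- mice (circles) and FIRE +/+ mice (squares), with standard errors from one limma fit of 12 arrays. *Atp6v1g2* lies farthest to the right (5.84 and 5.60), and *Atp6v0e*, *Atp6v0a2* and *Tcirg1* lie to the left of 0.

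*Tfeb* was lower in hippocampus. It was at 6.08, 6.09 and 6.02 in the hippocampus of FIRE -/- mice, against 7.31, 7.02 and 7.16 in their ileum, and at 6.02, 6.22 and 6.11 in the hippocampus of FIRE +/+ mice, against 6.76, 7.14 and 6.88 in their ileum. The differences were -1.10 and -0.81, without overlap. The genes with CACGTG before their start went both ways here, with *Atp6v1a* and *Gaa* higher and *Glb1*, *Naglu*, *Lamp1* and *Cln3* lower in hippocampus in both genotypes. Of the related factors, *Tfec* (-1.06 and -0.82) and *Tfe3* (-0.42 and -0.27) were lower and *Mitf* (1.13 and 1.05) was higher. In this list of 17 genes, 4 were lower and 7 higher in FIRE -/- mice and 5 lower and 8 higher in FIRE +/+ mice. Of all clusters, 31.8% were lower and 29.5% higher in FIRE -/- mice, and 31.1% and 28.7% in FIRE +/+ mice. *Rragb*, a Rag GTPase of the mTORC1 pathway, was at 7.37 to 7.95 on the hippocampus arrays, against 3.12 to 4.10 on the ileum arrays. The ileum values lie below the array medians, so the size of its difference is not given. *Rraga*, another Rag GTPase, was higher by 1.14 and 1.20. The *Tfec* values lie mostly below the array medians too. *Zkscan3*, also on this list, was lower in hippocampus (-0.58 and -0.69).

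Further hydrolases and their processing enzymes numbered 16, with 8 lower and 6 higher in FIRE -/- mice and 9 lower and 5 higher in FIRE +/+ mice. *Acp5*, the tartrate-resistant acid phosphatase, was at 4.11 to 4.50 on the hippocampus arrays, near the array medians, against 9.75 to 10.18 on the ileum arrays. *Scpep1*, a carboxypeptidase, differed by -2.51 and -2.86, and *Arsg*, a sulfatase (1.35 and 1.11), and *Pla2g15*, a lysosomal phospholipase (1.27 and 1.06), were highest of the list. The further list of membrane proteins held 32 measured genes, with 13 lower and 12 higher in FIRE -/- mice and 14 lower and 10 higher in FIRE +/+ mice. For both lists, the shares over all clusters were 31.8% lower and 29.5% higher in FIRE -/- mice, and 31.1% and 28.7% in FIRE +/+ mice. *Lamp5*, a relative of *Lamp1* found in neurons, was at 7.39 to 8.07 on the hippocampus arrays, against 1.89 to 2.75 on the ileum arrays, which lies far below the array medians, so the size of its difference is not given. *Abca2*, a lipid transporter of oligodendrocytes, was higher by 3.08 and 3.29. *Slc15a3* (-2.57 in FIRE -/- and -1.18 in FIRE +/+ mice), *Pttg1ip* (-1.95 and -2.07) and *Cd164* (-1.54 and -1.78) were lower in hippocampus, with *Slc15a3* near or below the array medians there.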

How the data were processed

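Total RNA of hippocampus and of ileum with Peyer's patches was hybridised to Affymetrix arrays, named Mouse Gene 1.0 ST in the study's methods. The methods name the RNeasy Plus kit for the RNA, and the labels Trizol before an RNeasy kit. The deposited table holds log2 values that the authors made from the array images by RMA, a method that subtracts background, evens out the probe signals between arrays and summarises the probes of each transcript cluster. Its version was not given in the sources used here. RMA compresses differences of dim clusters. Gene symbols came from the platform annotation. The 1881 clusters with several symbols and the 12457 with none were left out of the tests, without a filter on signal.

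Genotypes were compared in each tissue on its own (6 arrays), and tissues, and the difference between the genotype effects, in one fit of the 4 groups (12 arrays), with limma 3.58.1 in R 4.3.3 (lmFit, eBayes, two-sided) and Benjamini-Hochberg adjustment over 21218 clusters at a threshold of 0.05. The fits were tested on simulated data. No set test was made over the genes. The authors' own fold changes and p-values, in supplementary tables, were not used.

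The values on every array are given for genes past the threshold in a genotype comparison and for those of each class with the largest difference between genotypes in the hippocampus or between tissues in FIRE +/+ mice. Other members are named by size, up to 3 of a class in each direction or wherever they help the account. Other lysosomal genes are named where they passed between genotypes or were among the 2 largest between tissues in each direction. Some are also named as relatives of a gene already given or as the ends of a range. The 42 members, the 4 further lysosomal lists, the 9 marker lists (microglia and macrophages, neurons, astrocytes, oligodendrocytes, choroid plexus, meninges, intestinal epithelium, B cells and T cells) and the settings were chosen with earlier results of these data known.

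The alternatives were shrinkage with a trend, no moderation, a second quantile normalization, centring on array medians, all clusters, bright clusters, the second cluster of *Arsb*, the labelled sex, array weights, a shared fit or the arrays of 1 genotype, the code number as a block, the arrays of 1 code number, no arrays D09 and F09, and leaving out each array. Promoter sequences and start sites are those of RefSeq on GRCm38.p6, where 37 of 42 members had a window.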

Additional observations from a re-analysis of the deposited data

How the results depend on the processing

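In the hippocampus genotype comparison 3 lysosomal genes fell with each array left out in turn, and 1 in one fit of all 12 arrays. With the code number as a block, which sets H07 alone against the FIRE +/+ arrays, 2 fell, *Laptm5* and *Cd68*. Without moderation 2 fell. Over all clusters the count lower, 95, was 24 without moderation, 41 in the fit of 12 arrays, 62 with the replicate block and 34 within code number 07. No paired analysis was possible because the labels give no replicate numbers, and in the ileum all codes end in 09. In the ileum no lysosomal gene passed in any of 18 settings. For the difference between the genotype effects, none passed with all arrays, 1 with array weights and 2 without D09 and F09, and between 0 and 1 with each array left out. Between tissues, with each array left out, 20 to 22 genes were lower and 13 higher in FIRE -/- mice, and 18 to 19 were lower and 11 to 14 higher in FIRE +/+ mice. With the code number as a block *Npc2* (adjusted p = 0.0947), *Ctns* (0.0616), *Cln3* (0.121) and *Ppt1* (0.175) did not pass in FIRE +/+ mice. In these mice tissue and code number go together on every array. The block was therefore estimated from the FIRE -/- hippocampus alone, the only group with both code numbers. *Cd68* did not pass in FIRE -/- mice without G09 (-0.77, adjusted p = 0.0540), and *Mcoln1* did not within code number 09 (0.49, adjusted p = 0.0625). Of the genes that did not pass between tissues in FIRE -/- mice, *Laptm4a* (0.25, adjusted p = 0.0254), *Arsa* (-0.32) and *Idua* (-0.32) passed after a second quantile normalization, and *Tpp1* (-0.34), *Arsa* (-0.39) and *Idua* (-0.40) after centring. Of those that did not pass in FIRE +/+ mice, *Npc1* (0.36) and *Mcoln1* (0.40) passed after the quantile normalization and *Idua* (-0.35) after centring.

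The class medians between tissues moved with the scaling. In FIRE -/- mice the proton pump was at 1.41 after a second quantile normalization and 1.10 after centring, the hydrolases at -1.19 and *Tfeb* at -1.25 after centring. In FIRE +/+ mice the proton pump was at 1.27 and 0.98. With each array left out, the hydrolases ranged between -1.14 and -0.91 in FIRE -/- mice, lowest in size without H09, and the membrane proteins between -0.32 and 0.013 in FIRE +/+ mice, lowest without C09. No called difference of a lysosomal gene changed sign under any alternative, and the causes of these shifts were not tested. The number of arrays limits what could be detected. Signals below the array medians, such as *Slc11a1* in the FIRE -/- hippocampus, may understate differences.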

Other observations

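Choroid plexus transcripts differed between the hippocampus arrays, although none passed the test (limma, 0 of 5 measured genes). *Ttr*, the transthyretin of the choroid plexus, was at 12.34, 12.48 and 12.12 in FIRE -/- mice, against 12.42, 9.24 and 12.11 in FIRE +/+ mice, so the FIRE +/+ array F07 stood apart. The median difference of the 5 genes was 1.06. Without F07, *Laptm5*, *Cd68* and *Slc11a1* still passed and no other lysosomal gene did, and the part of these transcripts in the lysosomal values was not tested.

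Of the other marker lists, none of 8 astrocyte genes (median difference 0.06), 6 oligodendrocyte genes (0.03), 11 neuron genes (0.03), 8 meningeal fibroblast genes (0.31), 12 intestinal epithelial genes (-0.07), 10 B cell genes (-0.14) and 7 T cell genes (-0.05) passed between FIRE -/- and FIRE +/+ hippocampus. In the ileum none of the genes of the 9 marker lists passed between genotypes, with medians of -0.04 over 19 microglia and macrophage genes, 0.17 over 10 B cell genes and 0.15 over 7 T cell genes. Between tissues, in both genotypes, 6 of 6 oligodendrocyte genes and 6 of 8 astrocyte genes were higher in hippocampus than in ileum, with 1 astrocyte gene lower, and 4 of 7 T cell genes were lower. The meningeal fibroblast genes went both ways, with 5 of 8 lower and 3 higher in hippocampus. Of 10 B cell genes, 2 were lower in FIRE -/- mice and 1 in FIRE +/+ mice. Over all clusters, 31.8% were lower and 29.5% higher in FIRE -/- mice, and 31.1% and 28.7% in FIRE +/+ mice.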
